A study of Homo sapiens with 10 samples.

Results

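ZEB1, SNAI1, SNAI2 and SOX4 are 4 transcription factors of epithelial-mesenchymal transition (EMT) and of progenitor cells, and their transcripts were followed here across 3 subsets of breast cancer cells (BCCs) that differed in Oct4 reporter activity. Members were all probe sets whose platform annotation gives 1 of these 4 gene symbols, and each was treated separately. This gave 4 of the 12083 genes named by a single symbol, and 10 of the 25750 deposited probe sets, of which 5 were for SOX4, 3 for ZEB1, 1 for SNAI2 and 1 for SNAI1. A total of 9 members were among the 13883 probe sets that could be tested, and the exception was the dimmest SOX4 probe set, 1567906_at.

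EMT is a change of state in which epithelial cells loosen their junctions and take on the shape and motility of mesenchymal cells. ZEB1, SNAI1 (Snail) and SNAI2 (Slug) are zinc finger proteins that bind E-box sequences and repress epithelial genes such as CDH1, the gene of E-cadherin. SOX4, an HMG box protein active in embryonic and progenitor cells, is a target of TGFβ signaling that is known to promote EMT in mammary cells. Oct4A is a stem cell transcription factor, and its relative level was the basis on which the study arranged BCCs in a hierarchy.

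All cells were MDA-MB-231, a human triple-negative breast cancer line with a mesenchymal-like phenotype, and they were stable transfectants of pEGFP1-Oct3/4, a plasmid with GFP under the Oct4A promoter, kept by neomycin selection. Every subset was sorted from transfected cells, and no untransfected control was on the arrays. Whether all cells of each subset still held the plasmid was not measured here. Cells were sorted by GFP into the brightest (Oct4hi, 4 arrays), the dimmest (Oct4low, 4 arrays) and a middle fraction (Oct4med, 2 arrays), and the width given for the Oct4low gate differs between the results and the methods of the paper. Total RNA from 4 different experiments was isolated, and 100 ng was prepared for each Affymetrix Human Genome U133 Plus 2.0 array. Values are log2 intensities as normalized by the authors, so that a difference of 1 is a 2-fold change of signal. The subsets model reporter activity in 1 cell line, and the transcript of Oct4 itself was not analysed here.

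Array medians lay between 5.05 and 5.14. Replicates of a subset correlated at Pearson's r of 0.987 to 0.994 over the tested probe sets, and arrays from separate subsets at 0.957 to 0.981. Among markers of the line, CAV1 (11.99 to 12.43 over the 10 arrays), CD44 (10.83 to 11.29) and LOX (8.39 to 8.99) were clearly expressed, but the deposited probe sets for VIM and MSN were too dim to be tested. PGR (3.12 to 3.52) and CDH1 (3.81 to 4.39) lay below the array medians, while the ESR1 probe set read 5.72 to 6.24. The log2 of the summed intensities of the measured leukocyte markers was 7.02 to 7.22 in Oct4low, 6.87 to 7.18 in Oct4med and 6.87 to 7.12 in Oct4hi BCCs, with PTPRC, their defining gene, below the array medians. That of stromal fibroblast markers was 8.93 to 9.24, 8.83 to 8.90 and 9.01 to 9.09. Because sorted cells were measured in bulk, fewer cells that use a gene and less RNA per cell cannot be told apart.

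Of the members, only SOX4 and ZEB1 had promoter windows to search here, and SNAI1 and SNAI2 were not searched. SOX4 had the largest change of the members between the extreme subsets, and ZEB1 changed the other way. SOX4 is given with the 250 bases before its annotated start, and ZEB1 with the same stretch before the first of its 7 annotated starts. Both come from RefSeq on GRCh38.p14 and are written 5′ to 3′ along the plus strand, the strand of both genes. The SOX4 window is chr6:21593501-21593750, and the ZEB1 window is chr10:31318167-31318416. Capitals mark CAGGTG, an E-box of the kind that ZEB and SNAI proteins bind.
SOX4 promoter: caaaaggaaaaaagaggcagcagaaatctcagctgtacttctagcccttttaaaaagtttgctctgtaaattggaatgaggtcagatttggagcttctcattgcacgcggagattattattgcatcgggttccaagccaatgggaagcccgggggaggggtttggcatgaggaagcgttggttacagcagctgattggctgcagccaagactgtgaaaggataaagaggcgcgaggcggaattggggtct
ZEB1 promoter: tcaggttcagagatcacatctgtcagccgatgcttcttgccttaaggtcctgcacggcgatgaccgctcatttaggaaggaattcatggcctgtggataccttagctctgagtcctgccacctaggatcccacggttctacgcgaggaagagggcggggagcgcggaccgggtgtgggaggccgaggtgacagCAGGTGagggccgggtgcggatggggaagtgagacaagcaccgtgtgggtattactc
The SOX4 window had a GC content of 48.8% with 8 CpG sites, and that of ZEB1 59.2% with 15. The ZEB1 window held 1 E-box, at bases 57 to 52 before the start, and another of its 7 windows held 2. The search, on both strands, also covered the octamer ATGCAAAT of POU factors such as Oct4 and the SOX motif ACAAAG, and neither had a match in the SOX4 window or in any of the 7 ZEB1 windows. Over all 35116 promoter windows of this length, 17.5% held CAGGTG, 1.63% the octamer and 13.7% the SOX motif. None of the 3 motifs contains another, a match is only a match of letters, and its absence says nothing of binding elsewhere.

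SOX4 transcripts were highest in Oct4low BCCs, intermediate in Oct4med BCCs and lowest in Oct4hi BCCs. For 201417_at, the brightest of its probe sets, the Oct4low arrays read 9.37, 9.39, 9.30 and 9.26, the Oct4med arrays 8.69 and 8.86, and the Oct4hi arrays 8.07, 8.06, 7.90 and 8.09. No array of a subset overlapped with another subset. Subset means were 9.33 ± 0.06 for Oct4low (SD, n = 4), 8.78 ± 0.12 for Oct4med (n = 2) and 8.03 ± 0.09 for Oct4hi BCCs (n = 4).

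Between Oct4low and Oct4hi BCCs, 201417_at fell by 1.30 on the log2 scale, a 2.46-fold difference (SE 0.07, 95% interval -1.46 to -1.14, limma adjusted p = 1.98e-07), which ranked 22 among the falls of the 13883 tested probe sets. From Oct4low to Oct4med BCCs it fell by 0.55 (SE 0.09, limma adjusted p = 0.00124), and from Oct4med to Oct4hi BCCs by 0.75 (SE 0.09, limma adjusted p = 0.000155). The 3 comparisons share arrays, and both of the latter rest on the same 2 Oct4med arrays. SOX4 is among the genes that the study itself picked from these arrays for their change, so its direction here is not independent evidence.

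The 201416_at probe set gave nearly the same picture. It read 7.77, 7.71, 7.56 and 7.65 in Oct4low, 6.98 and 7.19 in Oct4med, and 6.51, 6.20, 6.34 and 6.56 in Oct4hi BCCs, again with no overlap. Its change between the extreme subsets was -1.27 (SE 0.09, limma adjusted p = 2.01e-06), with -0.58 from Oct4low to Oct4med (adjusted p = 0.00403) and -0.68 from Oct4med to Oct4hi BCCs (adjusted p = 0.00139) by limma. Without the first Oct4med array, the step from Oct4low to Oct4med was -0.48 with a limma adjusted p of 0.0571. In the methods' t-test, a plain two-sample test on the same values, the step from Oct4med to Oct4hi BCCs had an adjusted p of 0.0564 over all tested probe sets, which left 2 members called in that comparison.

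Both SOX4 probe sets with the suffix _s_at, which marks probes shared by several transcripts, moved less. The 201418_s_at probe set read 7.48, 7.24, 7.26 and 7.35 in Oct4low, 7.16 and 7.17 in Oct4med, and 6.99, 6.82, 6.89 and 7.00 in Oct4hi BCCs. The subsets stayed apart, but the gaps were narrow. It fell by 0.40 between Oct4low and Oct4hi BCCs (SE 0.08, limma adjusted p = 0.00193), whereas the differences of -0.17 from Oct4low to Oct4med (adjusted p = 0.233) and -0.24 from Oct4med to Oct4hi (adjusted p = 0.0796) did not pass limma's test.

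The other, 213668_s_at, differed between its Oct4med replicates. Its values were 6.51, 6.68, 6.65 and 6.65 in Oct4low, 5.86 and 6.60 in Oct4med, and 5.83, 5.67, 5.90 and 6.03 in Oct4hi BCCs. One Oct4med array lay within the Oct4low range and the other within that of Oct4hi BCCs. The fall of 0.76 between the extreme subsets passed (SE 0.13, limma adjusted p = 0.00123), and the steps through Oct4med BCCs did not (limma adjusted p = 0.114 and 0.110). Each step was called when 1 Oct4med array was left out: from Oct4low to Oct4med the difference was -0.76 without the second array (limma adjusted p = 0.00461), and from Oct4med to Oct4hi it was -0.74 without the first (adjusted p = 0.00684).

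The fifth SOX4 probe set, 1567906_at, reached its array's median on 1 array and was left out of the test. It read 4.91, 5.02, 4.78 and 4.90 in Oct4low, 5.23 and 5.08 in Oct4med, and 4.68, 4.97, 5.00 and 4.82 in Oct4hi BCCs. All 3 subsets lay within a narrow band near background. With no filter on dim probe sets, its differences were -0.04 between Oct4hi and Oct4low (limma adjusted p = 0.859), 0.25 between Oct4med and Oct4low (adjusted p = 0.203) and -0.29 between Oct4hi and Oct4med BCCs (adjusted p = 0.126). Over the 10 arrays, the 4 tested SOX4 probe sets correlated with each other at Pearson's r of 0.814 to 0.987, and with 1567906_at at -0.03 to 0.13, as a description over arrays that fall into subsets.

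**Figure D1:**
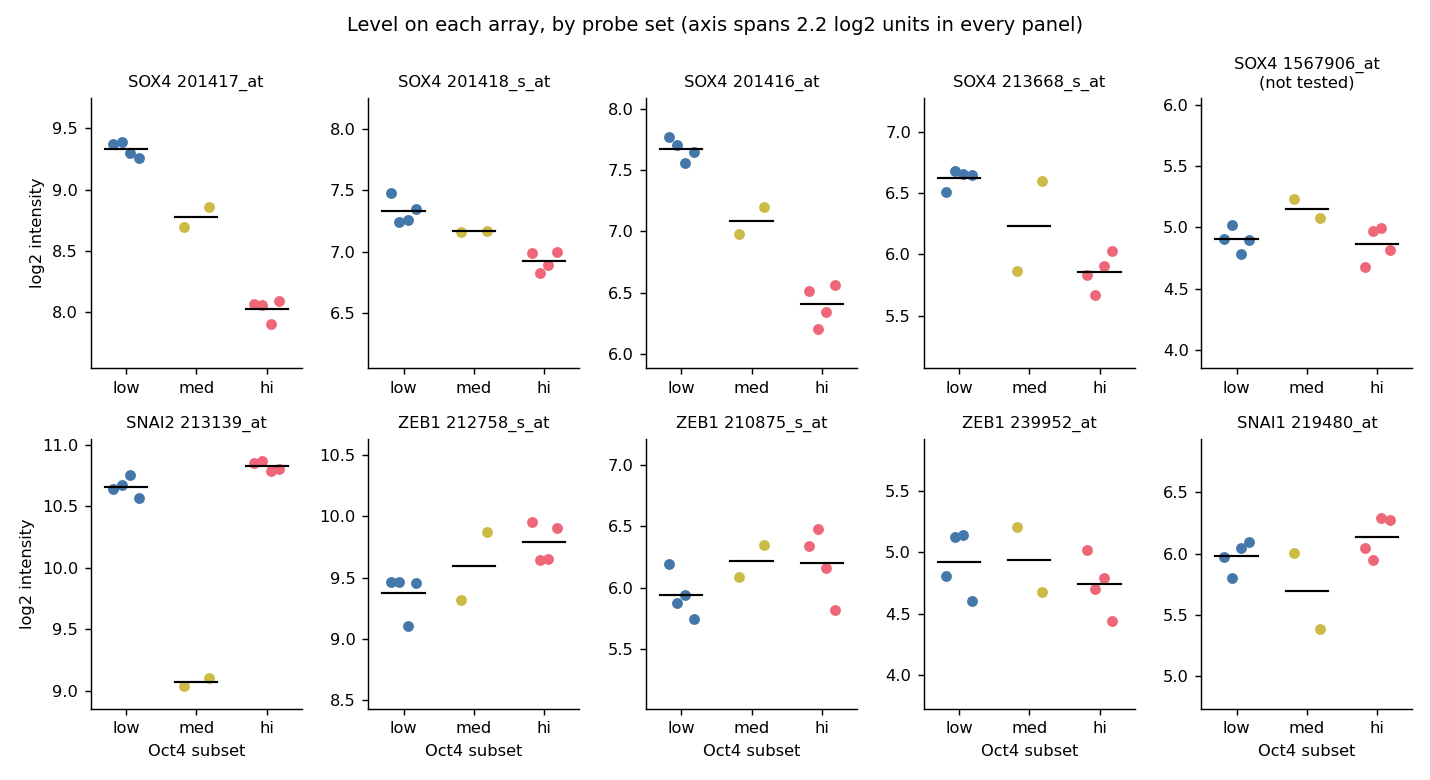
Log2 intensity (vertical axis) of the 10 member probe sets on each array, by Oct4 subset (horizontal axis); points are arrays and bars are subset means. SOX4 201417_at steps down from 9.33 to 8.78 and 8.03, SNAI2 drops in both Oct4med arrays (9.03 and 9.10), and the ZEB1 and SNAI1 probe sets shift by less than 0.5 between subset means.

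The plot of levels by array shows the contrast between SOX4, which was ordered with reporter activity, and SNAI2, in which the middle subset stood apart. SNAI2, the zinc finger repressor Slug, was sharply lower in Oct4med BCCs than in either extreme subset. Its single probe set, 213139_at, read 10.64, 10.67, 10.76 and 10.57 in Oct4low, 9.03 and 9.10 in Oct4med, and 10.85, 10.87, 10.79 and 10.81 in Oct4hi BCCs. Both Oct4med arrays lay below all other arrays, and the gap between the higher of them and the lowest Oct4low array was 1.47. Means were 10.66 ± 0.08 (SD, n = 4), 9.07 ± 0.05 (n = 2) and 10.83 ± 0.04 (n = 4).

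SNAI2 fell by 1.59 from Oct4low to Oct4med BCCs, a 3.01-fold difference (SE 0.08, 95% interval -1.77 to -1.41, limma adjusted p = 2.22e-07), and ranked 65 among the falls of that comparison. It was 3.39-fold higher in Oct4hi than in Oct4med BCCs, by 1.76 on the log2 scale (SE 0.08, 95% interval 1.58 to 1.94, limma adjusted p = 7.34e-08), and ranked 23 among the rises. Between Oct4hi and Oct4low BCCs the difference was 0.17 (95% interval 0.02 to 0.32), and the limma adjusted p of 0.0712 missed the threshold although the lowest Oct4hi array was 0.03 above the highest Oct4low array. This last call varied with the settings, with a limma adjusted p of 0.0176 when the prior followed intensity and 0.404 at the highest of 21 settings.

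Other measurements also set the Oct4med arrays apart. The brightest control probe set for large-subunit ribosomal RNA was between 13.53 and 13.70 on the Oct4low arrays, 12.64 and 12.77 on the Oct4med arrays, and 13.54 to 13.60 on the Oct4hi arrays. Another for the same RNA had means of 11.98, 11.50 and 11.87 from Oct4low to Oct4hi, and a dim one 5.30, 5.27 and 5.21. The control for small-subunit ribosomal RNA, at 12.84, 12.98 and 13.14, was not lowest in Oct4med BCCs. Of 13 tested immediate-early and handling response genes, which respond fast to growth factors and to stress of isolation, 10 fell and 0 rose from Oct4low to Oct4med BCCs, with a median change of -0.67 against 0.03 for all tested genes. They included ATF3 (11.95 to 10.67), KLF2 (9.17 to 8.05) and FOSB (10.56 to 9.56), each called by limma. The log2 of the summed intensities of the 14 measured genes of that list was 14.68 to 14.75 in Oct4low, 14.13 to 14.15 in Oct4med and 14.41 to 14.43 in Oct4hi BCCs. Of the tested marker genes, 1 of 2 for leukocytes, 1 of 3 for stromal fibroblasts, 2 of 5 for luminal breast cells and 1 of 3 for the line itself were also lower in Oct4med BCCs, where 11.7% of all tested genes were lower. The erythroid marker HBE1 was higher by 0.68 (limma adjusted p = 0.00049). The part of these measurements in the SNAI2 result was not tested.

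ZEB1, which represses CDH1 and is a regulator of the mesenchymal state, was modestly higher in Oct4hi than in Oct4low BCCs by its brightest probe set only. The 212758_s_at probe set read 9.46, 9.47, 9.11 and 9.46 in Oct4low, 9.32 and 9.87 in Oct4med, and 9.96, 9.64, 9.65 and 9.91 in Oct4hi BCCs. All Oct4hi arrays lay above all Oct4low arrays, and the 2 Oct4med arrays spanned most of the distance. It was 1.33-fold higher in Oct4hi BCCs, by 0.41 on the log2 scale (SE 0.13, 95% interval 0.13 to 0.70, limma adjusted p = 0.0272).

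The third Oct4low array, at 9.11, carried part of this difference. Without it, the difference was 0.33 with a limma adjusted p of 0.0794, and without the first or the fourth Oct4hi array the adjusted p was 0.0807 and 0.0609. The differences of 0.22 from Oct4low to Oct4med (95% interval -0.13 to 0.57, limma adjusted p = 0.346) and 0.19 from Oct4med to Oct4hi BCCs (adjusted p = 0.386) did not pass.

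The dimmer ZEB1 probe sets had no call in the comparisons. The values of 210875_s_at were 6.19, 5.88, 5.94 and 5.75 in Oct4low, 6.08 and 6.34 in Oct4med, and 6.34, 6.48, 6.16 and 5.82 in Oct4hi BCCs, and the extreme subsets overlapped. Its difference of 0.26 between Oct4hi and Oct4low BCCs had a limma adjusted p of 0.164, and it was 0.39 with an adjusted p of 0.0247 when the fourth Oct4hi array was left out. The 239952_at probe set, which reached its array's median on 2 arrays, read 4.81, 5.13, 5.14 and 4.61 in Oct4low, 5.21 and 4.68 in Oct4med, and 5.02, 4.70, 4.79 and 4.45 in Oct4hi BCCs. These ranges overlapped, and the difference of -0.18 between the extreme subsets (limma adjusted p = 0.398) had the opposite sign to the other ZEB1 probe sets.

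SNAI1, the zinc finger repressor Snail, showed no difference that passed the test. Its probe set 219480_at read 5.97, 5.80, 6.04 and 6.09 in Oct4low, 6.01 and 5.38 in Oct4med, and 6.05, 5.95, 6.29 and 6.28 in Oct4hi BCCs. The extreme subsets overlapped, and the second Oct4med array was lower than all other arrays while the first was within the Oct4low range. The difference between Oct4hi and Oct4low BCCs was 0.16 (95% interval -0.12 to 0.45, limma adjusted p = 0.368), that between Oct4med and Oct4low -0.28 (adjusted p = 0.232), and that between Oct4hi and Oct4med 0.44 (95% interval 0.10 to 0.79, adjusted p = 0.0574). The last of these depended on single arrays: without the first Oct4med array it was 0.76 (limma adjusted p = 0.0124), and without the second 0.13 (adjusted p = 0.539). It also passed with a common median (limma adjusted p = 0.0313), with a robust prior that follows intensity (adjusted p = 0.043) and without the second Oct4hi array (adjusted p = 0.0489). Without the first Oct4med array, its change from Oct4low to Oct4med BCCs was -0.59 with an adjusted p of 0.0346, and without the second it was 0.029 (adjusted p = 0.914) by limma.

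Counted together, 5 of the 9 tested members differed between Oct4hi and Oct4low BCCs, 4 of them lower (all SOX4) and 1 higher (ZEB1), where 34.8% of all tested probe sets were called (18.2% higher and 16.7% lower). Between Oct4med and Oct4low BCCs 3 members were called, all lower (2 of SOX4 and that of SNAI2), against 20.6% of all tested probe sets (5.19% higher and 15.5% lower). Between Oct4hi and Oct4med BCCs 3 were called, SNAI2 higher and 2 of SOX4 lower, against 26.7% (18.1% higher and 8.6% lower). By gene, the calls concern 2 of the 4 members in each comparison, and the counts of 3 are near the shares over all probe sets. Median changes of the 9 members were -0.18, -0.28 and -0.20 in the same order of comparisons, beside -0.0045, 0.011 and 0.016 for all tested probe sets. These medians count probe sets, and 4 of the 9 are of SOX4. By brightest probe set, SOX4 changed by -1.30 between Oct4hi and Oct4low BCCs. SNAI2, ZEB1 and SNAI1 changed by 0.17, 0.41 and 0.16, of which only the ZEB1 change was called. The F-test of limma over the 3 subsets called 5 members, the 4 tested SOX4 probe sets and SNAI2, where it called 44.4% of all tested probe sets. For ZEB1 212758_s_at its adjusted p was 0.055.

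**Figure D2:**
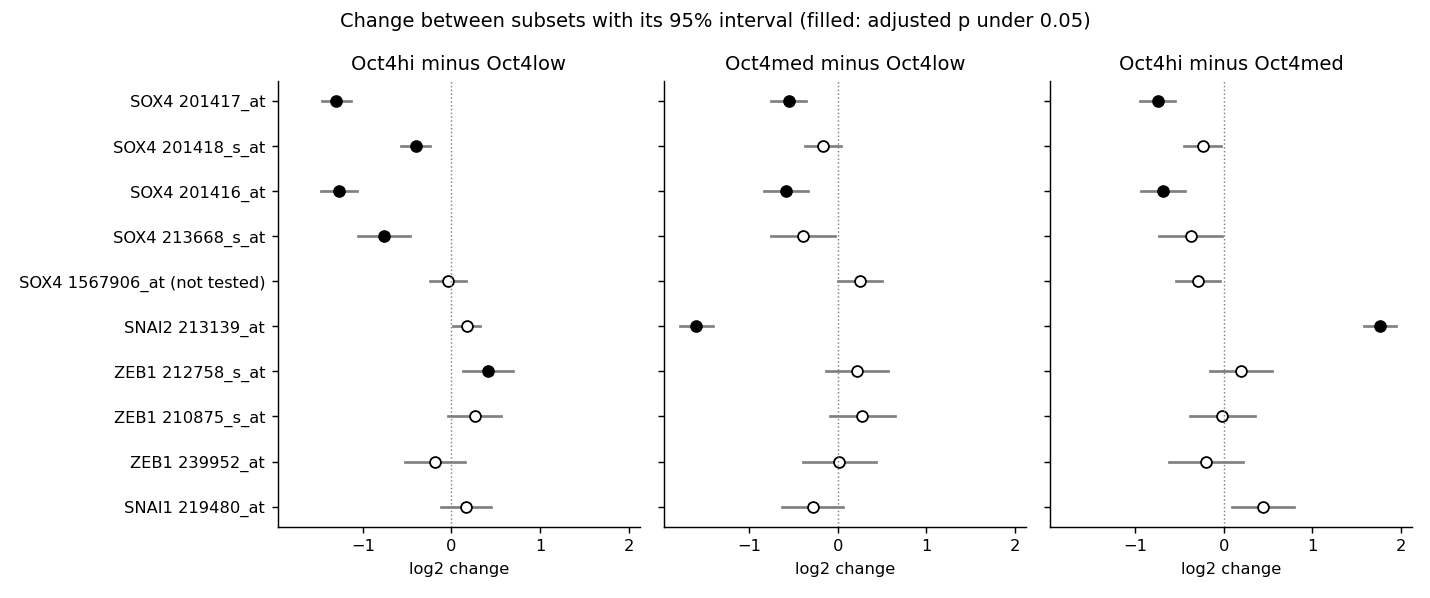
Log2 change (horizontal axis) of each member probe set (vertical axis) in the 3 comparisons, with its 95% interval as a bar; filled points had a limma adjusted p under 0.05, and 1567906_at was fitted only without the filter. SOX4 201417_at lies left of zero in all 3 panels (-1.30, -0.55 and -0.75), and SNAI2 lies at -1.59 in the middle panel and at 1.76 in the right panel.

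The plot of changes with their intervals shows SOX4 and SNAI2 as the members with calls in more than 1 comparison. By subset, SOX4 was ordered Oct4low, Oct4med, Oct4hi from high to low, and both neighbours differed by 201417_at. For SNAI2 the order was Oct4hi, Oct4low, Oct4med, and the first pair was not separated. The order for ZEB1 212758_s_at was Oct4hi, Oct4med, Oct4low with neither neighbouring pair separated, and for SNAI1 it was Oct4hi, Oct4low, Oct4med, again with neither pair separated.

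The difference in response between members was examined for Oct4hi against Oct4low BCCs in 11 pairs of probe sets, by an exact two-sided permutation test over 70 assignments of the arrays. The smallest p that this design allows is 0.0286. Its adjusted value depends on how many of the 11 pairs reach it, and was 0.0524 here, so no pair passed. A pair could pass only if most pairs reached that p, so the lack of a pass says little about the members. The change of SOX4 201417_at was below that of ZEB1 212758_s_at by 1.71 (a difference of changes of -1.71), below that of SNAI2 with a difference of -1.47 and below that of SNAI1 with a difference of -1.46, each at that smallest exact permutation p. Within SOX4, 201417_at changed more than 201418_s_at (difference -0.89) and 213668_s_at (difference -0.54), both also at the smallest p, while it differed from 201416_at by -0.033 (exact permutation p = 0.686, adjusted 0.754). Within ZEB1, 212758_s_at changed by 0.60 more than 239952_at, at the smallest p, and by 0.15 more than 210875_s_at (exact permutation p = 0.571). The changes of SNAI2 and ZEB1 differed by -0.24 (exact permutation p = 0.2), those of SNAI2 and SNAI1 by 0.0075 (p = 0.971) and those of ZEB1 and SNAI1 by 0.25 (p = 0.229), which does not show that they are equal.

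Genes with the most similar pattern to each member were found by Pearson's r over the 10 arrays, as a description that rests largely on the subset means. For SOX4 they were CDH11, a mesenchymal cadherin (r = 0.993; subset means 11.79, 11.52 and 10.99 from Oct4low to Oct4hi), the bradykinin receptor gene BDKRB2 (r = 0.990) and NPAS2, a circadian transcription factor (r = 0.989). For SNAI2 they were TRIB1, a pseudokinase gene (r = 0.999; means 10.67, 9.57 and 10.79), the smooth muscle actin gene ACTG2 (r = 0.998; means 8.17, 6.19 and 8.39) and TNFAIP3, an inhibitor of NF-kB signaling (r = 0.993; means 10.79, 9.74 and 10.83). TRIB1, ACTG2 and TNFAIP3 were each lower on both Oct4med arrays than on the other 8 arrays, as SNAI2 was.

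For ZEB1 the most similar genes were the phosphatase gene PTPN12 (r = 0.987; means 5.84, 6.19 and 6.46), NEMF, a factor of ribosome quality control (r = 0.980), and the chaperone gene HSPA4 (r = 0.980). They shared with ZEB1 the low value of the third Oct4low array and the gap between the Oct4med arrays. For SNAI1 likeness was weaker, with LINC01588 (r = 0.877), the autophagy gene ATG2B (r = 0.877) and the proteasome assembly gene PSMD9 (r = 0.859), and the shared feature was the low second Oct4med array. Among the members themselves, r was -0.65 between SOX4 201417_at and ZEB1 212758_s_at.

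**Figure D3:**
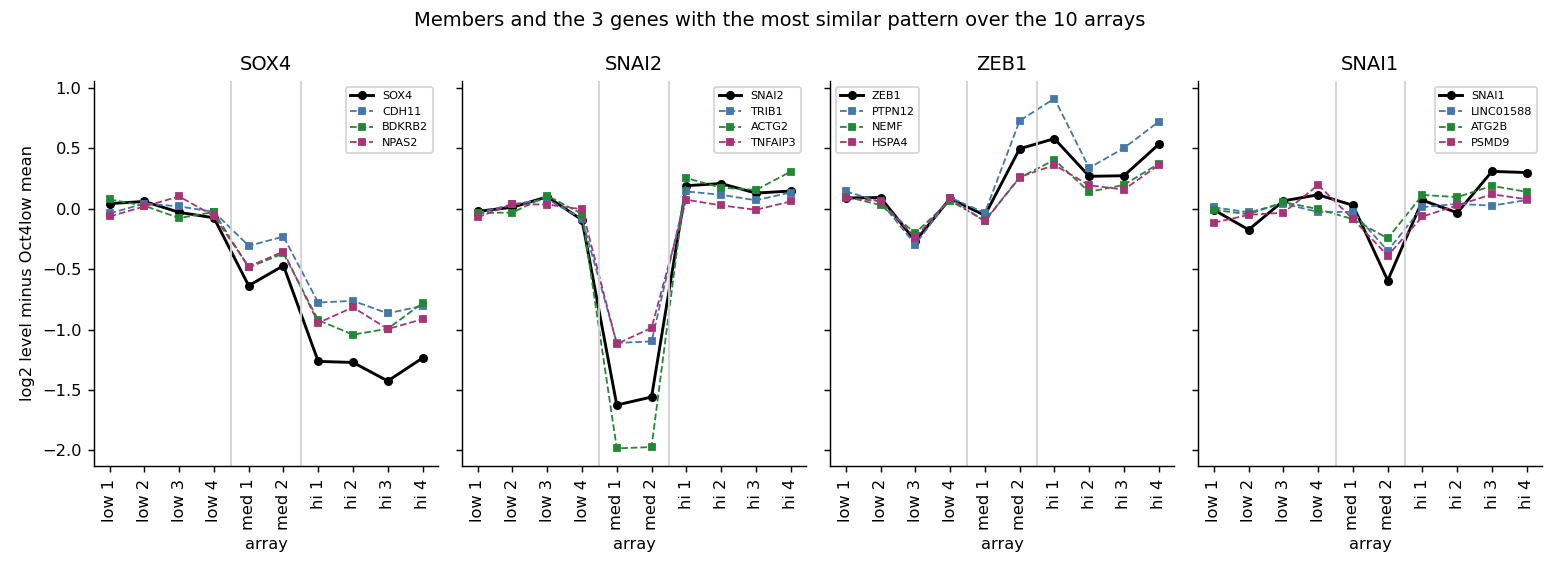
Log2 level minus the Oct4low mean (vertical axis) on each of the 10 arrays (horizontal axis) for the brightest probe set of each member (black) and the 3 genes most similar to it (dashed); lines only guide the eye. ACTG2 falls further than SNAI2 in Oct4med BCCs (mean 6.19 against 8.17 in Oct4low), and HSPA4 shares with ZEB1 the low value on the third Oct4low array.

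The plot of similar genes shows differences between replicates that were shared with ZEB1 and SNAI1, and differences between subsets that were shared with SOX4 and SNAI2. Of 15 other EMT transcription factors on the list, 10 had a probe set and 5 were tested. Against percentages of 20.4% higher and 14.7% lower over all tested genes, 1 was higher in Oct4hi than in Oct4low BCCs (ETS1, 11.60 to 11.92, limma adjusted p = 0.00525) and 1 lower (TCF3, which encodes the E proteins E12 and E47, 6.61 to 6.38, adjusted p = 0.0368). In Oct4med BCCs, FOSL1, an AP-1 subunit, was lower than in Oct4low (9.85 to 9.43, limma adjusted p = 0.00342) and RUNX2, the osteoblast factor, too (10.70 to 10.42, adjusted p = 0.0421), where 11.7% of all tested genes were lower and 5.68% higher. Between Oct4hi and Oct4med BCCs, 2 were higher (ETS1 and FOSL1) and 1 lower (TCF3), where 18.2% of all tested genes were higher and 9.62% lower. The medians of the list were -0.05 for Oct4hi against Oct4low, -0.07 for Oct4med against Oct4low and 0.23 for Oct4hi against Oct4med BCCs, beside 0.018, 0.029 and -0.0074 for all tested genes. ZEB2, the paralog of ZEB1, was dim in all subsets with a mean of 4.42, and TWIST2 and PRRX1 likewise (3.95 and 3.86).

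Of the other SOX genes, 5 of 17 were tested. SOX9, a factor of progenitors and cartilage, fell by 0.47 between Oct4low and Oct4hi BCCs (10.88 to 10.41, limma adjusted p = 0.000705). It was lowest in Oct4med BCCs at 10.14, a larger change of -0.74 from Oct4low (limma adjusted p = 0.000197). SOX6 fell by 0.47 as well (6.07 to 5.59, limma adjusted p = 0.00199), also with its lowest mean in Oct4med BCCs (5.31). Its change from Oct4low to Oct4med BCCs was -0.76 (limma adjusted p = 0.00057). In each comparison with Oct4low BCCs 2 of the 5 were lower and 0 higher. Over all tested genes, 14.7% were lower in Oct4hi and 11.7% in Oct4med BCCs. SOX3, SOX10 and SOX12 had no call in the 3 comparisons, and SOX2, a pluripotency factor, was dim (4.30). Between Oct4hi and Oct4med BCCs the smallest limma adjusted p among them was 0.0503, for SOX9 with a change of 0.27. The medians of the list were -0.17, -0.30 and 0.13 in the order of the comparisons above, beside 0.018, 0.029 and -0.0074 for all tested genes.

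ZEB and SNAI factors are known to repress many epithelial genes. Of 27 such genes on the list, 19 had a probe set and 9 were tested, and CDH1 was dim throughout. Between Oct4hi and Oct4low BCCs, 1 was higher, the desmosome gene DSP (9.94 to 10.38, limma adjusted p = 0.000442), and 1 lower, the epithelial factor ELF3 (6.44 to 6.14, adjusted p = 0.0113), where 20.4% of all tested genes were higher and 14.7% lower. In Oct4med BCCs, TJP3, a tight junction gene, was higher than in Oct4low (5.33 to 5.70, limma adjusted p = 0.0257). TJP3 was the only call there, where 5.68% of all tested genes were higher and 11.7% lower. EPCAM had no call (7.90, 7.87 and 8.08 from Oct4low to Oct4hi). DSP was also the 1 gene called between Oct4hi and Oct4med BCCs, and was higher, where 18.2% of all tested genes were higher and 9.62% lower. The medians of the list were -0.07, -0.01 and -0.10 in the order of the comparisons above, beside 0.018, 0.029 and -0.0074 for all tested genes.

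Mesenchymal genes were called in both directions between the extreme subsets. Of 14 tested, 4 were higher and 5 lower in Oct4hi than in Oct4low BCCs, where 20.4% of all tested genes were higher and 14.7% lower. Oct4med against Oct4low BCCs gave 8 lower, 0 higher and 6 not called, where 11.7% of all tested genes were lower. The medians were -0.13 and -0.29, beside 0.02 and 0.03 for all tested genes. FN1, fibronectin, fell by 1.46 from Oct4low to Oct4hi BCCs (12.72 to 11.27, limma adjusted p = 2.70e-08), with Oct4med BCCs in between at 11.91, the same order of subsets as SOX4. TAGLN, a contractile protein gene, rose by 0.97 (8.99 to 9.96, limma adjusted p = 3.48e-06) and was lowest in Oct4med BCCs at 8.09, as SNAI2 was. TNC, the matrix protein tenascin-C, was also lowest in Oct4med BCCs (7.98, 6.87 and 7.39 from Oct4low to Oct4hi). Between Oct4hi and Oct4med BCCs, 5 were higher and 3 lower, with a median of 0.18, where 18.2% of all tested genes were higher and 9.62% lower. The brightest deposited VIM probe set, with a mean of 3.95, was too dim to be tested. FN1 and TAGLN, like SOX4, are listed by the study for their change in these arrays, so their directions are not independent evidence.

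Among genes of TGFβ and BMP signaling, which include ligands, receptors and targets, 6 of 17 tested were higher and 8 lower in Oct4hi than in Oct4low BCCs. Over all tested genes, 20.4% were higher there and 14.7% lower. In Oct4med against Oct4low BCCs, 0 were higher and 7 lower, where the shares were 5.68% and 11.7%. Oct4hi against Oct4med BCCs gave 8 higher and 3 lower, where the shares were 18.2% and 9.62%. The medians were -0.20, -0.15 and 0.15, beside 0.018, 0.029 and -0.0074 for all tested genes. The dominant-negative helix-loop-helix genes had the low middle that SNAI2 had: ID1 was at 11.54, 9.84 and 11.44 from Oct4low to Oct4hi, ID2 at 8.32, 7.05 and 8.88, and ID3 at 10.58, 8.87 and 10.12. The type I receptor gene TGFBR1 fell by 2.01 from Oct4low to Oct4med BCCs by its brightest tested probe set (7.16 to 5.15, limma adjusted p = 2.82e-05). Its Oct4med mean lay next to the array medians of 5.05 to 5.14. Its SD was 0.27 in Oct4low and 0.29 in Oct4hi BCCs.

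Of 11 tested cofactors and modifiers of the 4 proteins, 3 were higher and 1 lower in Oct4hi than in Oct4low BCCs, near the 20.4% and 14.7% of all tested genes. SUV39H1, a histone methyltransferase recruited by Snail, rose by 0.54 (7.43 to 7.98, limma adjusted p = 0.00224), RCOR1, a subunit of the CoREST corepressor, by 0.40 (9.21 to 9.61, adjusted p = 0.00173) and the casein kinase gene CSNK2A1 by 0.38 (9.08 to 9.46, adjusted p = 0.00286). GSK3B, the kinase that marks Snail for degradation, fell by 0.40 (6.46 to 6.06, limma adjusted p = 0.00334). Between Oct4med and Oct4low BCCs 2 were higher and 0 lower, where 5.68% of all tested genes were higher and 11.7% lower. Between Oct4hi and Oct4med BCCs 2 were higher and 2 lower, where 18.2% of all tested genes were higher and 9.62% lower. The medians of the list were 0.01, 0.12 and 0.07 in the order of the comparisons above, beside 0.018, 0.029 and -0.0074 for all tested genes.

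**Figure D4:**
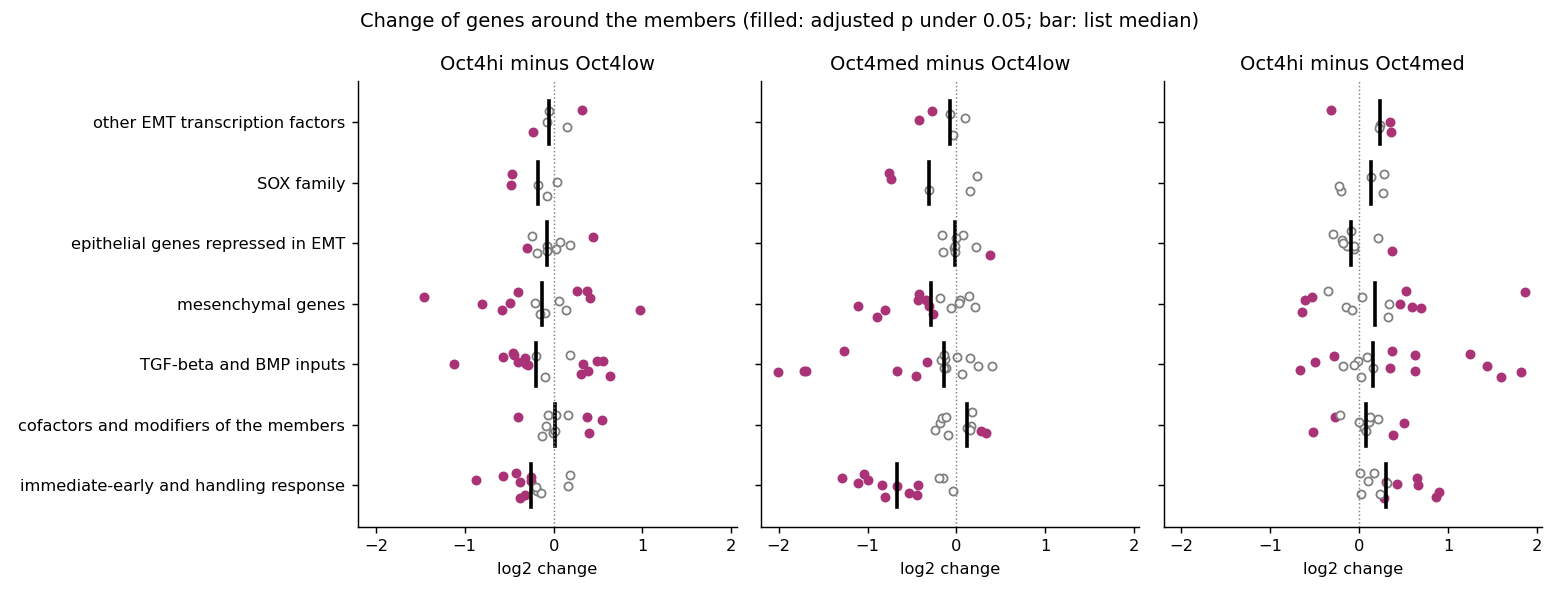
Log2 change (horizontal axis) of each tested gene of 7 lists around the members (vertical axis) in the 3 comparisons; points are genes, filled where the limma adjusted p was under 0.05, and bars are list medians. The immediate-early genes have a median of -0.67 in Oct4med against Oct4low BCCs and the mesenchymal genes one of -0.29.

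The plot of the lists shows most of the called genes below zero in Oct4med against Oct4low BCCs. Markers of other cells also differed between the extreme subsets in which SOX4 and ZEB1 were called. Of 5 tested luminal breast markers on a list of 8, 3 were lower and 0 higher in Oct4hi than in Oct4low BCCs, among them MLPH (9.24 to 8.37) and GATA3 (7.63 to 6.87), and the log2 of the summed intensities of the 7 measured was 10.24 to 10.30 in Oct4low, 10.08 in both Oct4med arrays and 9.73 to 9.81 in Oct4hi BCCs. All 3 tested markers of the line itself were lower as well, with summed levels of 13.00 to 13.06, 12.88 to 12.89 and 12.62 to 12.72 in the same order. Over all tested genes, 14.7% were lower and 20.4% higher in Oct4hi than in Oct4low BCCs. The only tested erythroid marker, HBE1, was higher (7.21 to 7.95), with summed levels of the 2 measured of 7.21 to 7.44, 7.93 to 7.98 and 7.92 to 8.16, and ALAS2 was below the array medians. Leukocyte and stromal markers had limma adjusted p-values of at least 0.0767 and 0.0636 in this comparison. Of the 13 immediate-early and handling response genes, 8 were lower and 0 higher in Oct4hi BCCs, with a median of -0.25 beside 0.018 for all tested genes. The part of these genes in the SOX4 and ZEB1 results was not tested.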

How the data were processed

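The deposited table holds RMA normalized log2 intensities of 25750 probe sets on 10 arrays, which the authors made with BRB-Array Tools from intensities corrected for background, and from which they removed features with a signal near background or little change. Values lay between 2.37 and 14.46. RMA scales all arrays to one distribution, so that a change in total RNA per cell is not seen. Scanner files were not used here.

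The members and gene lists were chosen with earlier results of these data known. Probe sets were named from the platform annotation (18683 with 1 symbol, 799 with several, 6268 with none). None of the member probe sets had several symbols. Of the 18683, 18654 had a symbol found in RefSeq. Tests covered the 13883 probe sets that on 2 or more arrays reached the median of that array, leaving out 23 controls, and 7644 genes were each represented by the brightest tested probe set. One limma model (limma 3.58.1, R 4.3.3) with a mean per subset was fitted to all 10 arrays, and two-sided p-values were adjusted by Benjamini-Hochberg with a threshold of 0.05. The code was tested on simulated data. Genes named beside the members were the 3 most correlated with each member, up to 4 genes of each list with the largest change in any comparison, and VIM, CDH1, FN1 and ZEB2. Some further dim or uncalled list genes (TWIST2, PRRX1, SOX2, SOX10, EPCAM, ALAS2, MSN, PGR, PTPRC) were named after their values were seen. Alternatives were other filters, quantile normalization or a common median, array weights, a robust prior that follows intensity, and only the subsets compared. Others were a t-test without the random variance model of the methods (the plain t-test) and the replicate number as a block. The last were no probe sets ending in _x_at or _s_at, and leaving out each array. Per the methods, RNA came from 4 different experiments, and arrays of different subsets may share one, so p-values reflect only the spread among these arrays. Precision is limited by the number of arrays, most of all by the 2 of Oct4med BCCs.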

Additional observations from a re-analysis of the deposited data

Results flagged for a closer look

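In groups of 4 arrays, 1 array stood apart from the other 3 by Dixon's test in 9 of 124 groups over 62 probe sets of the members, the genes most similar to them and the named list genes. Chance alone marks about 1 in 20 groups, and groups of probe sets chosen for their likeness to a member are not independent of that member. Among the members, ZEB1 212758_s_at was 9.11 in the third Oct4low array with the nearest other at 9.46. The same array was also apart for HSPA4 (7.77, nearest 8.07), ACTG2 (8.28, nearest 8.14) and KLF2 (9.37, nearest 9.11). HSPA4 was picked for its likeness to ZEB1 over these arrays, so its low value there is not separate evidence. In the second Oct4low array LOX was 8.90 (nearest 8.99). In Oct4hi BCCs, TCF3 was 6.20 in the first array (nearest 6.43), FOSL1 9.82 in the second (nearest 9.77), PATJ 5.22 in the third (nearest 4.72) and TGFBR1 7.02 in the fourth (nearest 6.49).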

How the results depend on the processing

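SOX4 201417_at in all 3 comparisons, and SNAI2 in both comparisons with Oct4med BCCs, kept direction and call in all 21 settings: the SOX4 change between the extreme subsets ranged from -1.36 to -1.26 and the SNAI2 change from Oct4low to Oct4med BCCs from -1.62 to -1.52. The ZEB1 212758_s_at call between Oct4hi and Oct4low BCCs was lost after quantile normalization (limma adjusted p = 0.0535). It was also lost in the plain t-test (adjusted p = 0.0508 over all tested probe sets) and without any 1 of 3 arrays. Its changes were 0.33 to 0.46 over all settings. Without _x_at and _s_at probe sets, 2 members were called between Oct4hi and Oct4low BCCs, since 4 of the 9 are of that kind, and 3123 of all probe sets (main 4837) and 2438 between Oct4hi and Oct4med BCCs (main 3710). From Oct4low to Oct4med BCCs, 1851 probe sets were called with array weights and 1109 with the plain t-test (main 2865). From Oct4med to Oct4hi BCCs, 1866 were called with that test. After quantile normalization, 1381 were higher and 1807 lower from Oct4low to Oct4med BCCs (main 720 and 2145). From Oct4med to Oct4hi BCCs, 1719 were then higher and 1618 lower (main 2516 and 1194), so the balance of directions depended on normalization. Leaving out each array in turn gave 3776 to 5018, 1521 to 2806 and 1425 to 3883 probe sets called for Oct4hi against Oct4low, Oct4med against Oct4low and Oct4hi against Oct4med BCCs, and 4 to 5, 3 to 4 and 3 to 5 members. The lowest counts of probe sets in the last 2 comparisons, and the 5 members, came without the first Oct4med array.

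Deviations of arrays from their subset means were correlated between subsets. Same-numbered arrays gave -0.26 to 0.28, with 2 of 8 pairs over 0.1. Deviations of the 2 Oct4med arrays mirror each other, so each of their correlations has a counterpart of opposite sign. The check therefore cannot decide whether replicate numbers pair the arrays. For arrays with different numbers the range was -0.51 to 0.51, with 7 of 24 pairs over 0.1. The highest were 0.51 for Oct4med 1 with Oct4hi 3 and 0.41 for Oct4low 2 with Oct4hi 4. Whether such arrays came from the same experiment was not tested, and neither the main fit nor a block by number allows for it. Fitting the replicate number as a block left 1552 probe sets called between Oct4med and Oct4low and 2232 between Oct4hi and Oct4med BCCs, and the member counts remained 5, 3 and 3.

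Signs turned only for changes that were not called. With the block, ZEB1 239952_at was -0.064 from Oct4low to Oct4med BCCs (main 0.020) and ZEB1 210875_s_at 0.14 between Oct4hi and Oct4med BCCs (main -0.02), which was 0.022 with a common median and 0.048 with array weights. Leaving out single arrays gave -0.054 to 0.50 for ZEB1 212758_s_at, -0.24 to 0.28 for 239952_at and -0.59 to 0.029 for SNAI1 from Oct4low to Oct4med BCCs, and -0.083 to 0.47 for 212758_s_at, -0.15 to 0.11 for 210875_s_at and -0.47 to 0.062 for 239952_at between Oct4hi and Oct4med BCCs. The difference of the SNAI2 and SNAI1 changes was -0.11 after quantile normalization and -0.071 to 0.070 without single arrays, and that of ZEB1 212758_s_at and 210875_s_at -0.013 to 0.29. The cause of these shifts was not tested. Signal near background limits ZEB1 239952_at and SOX4 1567906_at most.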
